A study of Mus musculus with 17 samples.

Results

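The carriers that move glutamate and glutamine across the plasma membrane were described here in the cochlea of noise-exposed mice. Members were taken by gene symbol, a rule that uses no measured value, although the group was picked with earlier results of these data known. All 10 of its genes were found among the 35285 genes of the deposited table. Slc1a1, Slc1a2, Slc1a3, Slc1a6 and Slc1a7 encode the sodium-driven glutamate transporters EAAC1, GLT-1, GLAST, EAAT4 and EAAT5. Slc1a5 encodes ASCT2, an exchanger of glutamine and other neutral amino acids. Slc38a1 and Slc38a2 encode the system A carriers SNAT1 and SNAT2, and Slc38a3 and Slc38a5 encode the system N carriers SNAT3 and SNAT5.

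Glutamate is the transmitter between inner hair cells and the spiral ganglion neurons, and it is cleared from the cleft by carriers of the surrounding cells. In the cochlea this uptake is attributed mainly to GLAST, also named EAAT1, on the supporting cells around the inner hair cells. Glutamine synthetase turns the glutamate into glutamine, system N carriers release it, and system A carriers return it to neurons, where it is turned into glutamate again. In the cerebellum EAAT4 is the carrier of Purkinje cells, GLAST is abundant in Bergmann glia, and GLT-1 is the main carrier of astrocytes in much of the brain.

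RNA from the cochleae of 17 male wild-type C57BL/6J mice was sequenced, 1 mouse per library, 2 days after noise exposure (NE) at 8 weeks of age. All groups share the strain's Cdh23 allele, which the study links to early progressive hearing loss. The 3 control mice were injected with saline on the same schedule and not exposed, the 7 NE mice spent 2 h in noise between 8 and 16 kHz with a level of 100 dB, and the 7 brimonidine mice had this exposure with 3 intraperitoneal injections of brimonidine, an α2-adrenergic agonist, at 1 mg/kg. No group received brimonidine without noise, and no saline injection is described for the NE mice. The labels call the cells interstitial cells of the cochlea, the methods for sequencing name cochleae, and those for qPCR name basilar membrane tissue of which a portion was sequenced. Levels are FPKM, fragments scaled to the exon length of the gene and to the library total, with no further scaling between libraries, and the libraries held between 14457733 and 18288854 fragments.

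Markers of other tissues were read before the carriers. Neutrophil genes summed to between 39340 and 64540 FPKM in 16 of the 17 libraries and to 9686 in control 2. Cochlear genes were present, with Coch, of spiral ligament fibrocytes, between 444.0 and 1040 FPKM and Myo7a, of hair cells, between 4.57 and 4.98 in the controls. Myo7a was even across the controls, but the 8 hair cell genes together summed to 16.5, 32.3 and 14.3 FPKM in controls 1, 2 and 3. Genes of cerebellar neurons, which the label does not name, were present mainly in the 3 control libraries. The 10 granule cell genes summed to 205, 554 and 216 FPKM in controls 1, 2 and 3, to between 19.4 and 29.2 in the NE group, and to between 20.1 and 73.9 in the brimonidine group, with the top value in brimonidine 5. The 8 Purkinje cell genes summed to between 101 and 280 FPKM in the controls, 6.36 and 12.1 in the NE group, and 9.59 and 41.8 in the brimonidine group, again highest in control 2 and brimonidine 5. The defining markers Gabra6 and Pcp2 were near 0 in the NE group, at a median of 0.22 and 0.031 FPKM, against 31.5 to 93.4 and 2.08 to 8.76 in the controls. The main differences from the controls are therefore also given without control 2. In bulk RNA, fewer cells of a type and less RNA per cell cannot be told apart.

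Of the 10 carriers, 9 reached 1 FPKM in at least 3 of the 17 libraries. Slc38a2 was the most abundant carrier in every library, with group means of 83.3 ± 7.71 (SD, n = 3), 64.5 ± 8.46 (SD, n = 7) and 69.1 ± 5.23 FPKM (SD, n = 7) in the control, NE and brimonidine groups. In the controls the order by mean was Slc38a2, Slc1a3, Slc1a5, Slc38a1, Slc1a6, Slc1a2, Slc38a5, Slc38a3, Slc1a1 and Slc1a7. From Slc1a3 down to Slc38a3, the 3 control values of every neighbouring pair overlapped, so that the order of neighbours did not exceed the spread between mice. Genes further apart could separate, as all control values of Slc1a3 and Slc1a5 lay above those of Slc1a2, Slc38a5 and Slc38a3. Within each control library, however, Slc1a6 was above Slc1a2, Slc1a2 above Slc38a5 and Slc38a5 above Slc38a3. In the NE group Slc38a2, Slc1a5, Slc38a1 and Slc1a3 followed each other without overlap. From Slc1a3 on, through Slc38a5, Slc1a2 and Slc38a3 to Slc1a1, neighbours overlapped, and Slc1a6 lay below the lowest value of Slc1a1. The same 4 genes led in the brimonidine group, where the lower ranks also overlapped, except between Slc38a5 and Slc38a3 and between Slc1a6 and Slc1a7.

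**Figure D1:**
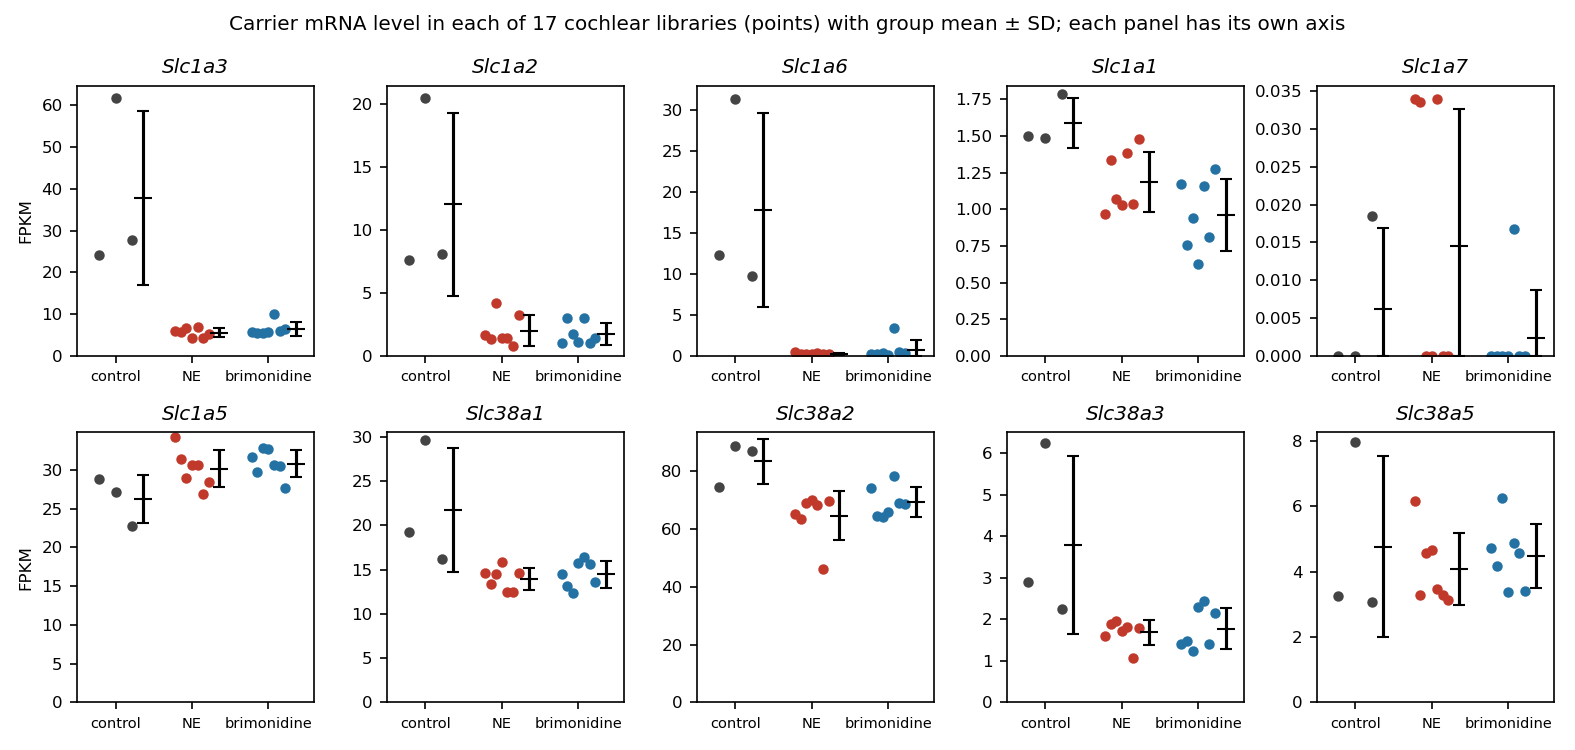
FPKM of the 10 carriers (vertical axes, each panel on its own scale from 0) in the control (n = 3), NE (n = 7) and brimonidine (n = 7) groups. Points are libraries, and the bar beside them is the group mean ± SD, drawn no lower than 0. The control points of Slc1a3, Slc1a2 and Slc1a6 lie above all exposed points, with control 2 highest, whereas Slc1a5 lies near 30 FPKM in all groups.

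Slc1a3, the GLAST gene at chr15:8634124-8710764 on the minus strand of GRCm38, was the most abundant glutamate transporter. It had 24.0, 61.7 and 27.7 FPKM in controls 1, 2 and 3. In the NE group it ranged from 4.26 to 6.89 with a median of 5.61 FPKM, and in the brimonidine group from 5.41 to 10.1 with a median of 5.70. All 14 exposed libraries lay below all 3 controls, and brimonidine 5 was the highest of them. The mean was 37.8 ± 20.8 FPKM (SD, n = 3) in the controls and 5.58 ± 1.05 (SD, n = 7) in the NE group, a ratio of 6.78. On the log2(FPKM + 1) scale, which understates changes of low genes, Slc1a3 fell by 2.45 in the NE group (standard error 0.25, limma adjusted p = 0.000212), and without control 2 the difference was -2.04 (adjusted p = 2.34e-05) and the ratio 4.63.

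The study measured this gene as EAAT1 by immunofluorescence, qPCR and western blotting. It reported that the level rose significantly after noise and that brimonidine reversed this. In the sequenced libraries Slc1a3 was instead lower in the NE group, and the cause of the difference was not tested. The qPCR primer pair is shown because it marks the stretch of transcript that was assayed. The product of 185 bases runs from exon 7 to exon 8 of the 10 exons of the 4163-base transcript Slc1a3-201, wholly within the coding sequence, and transcripts of 1 gene in GENCODE M21, Slc1a3, held both primers. The forward primer lies at chr15:8642983-8643005 and the reverse primer at chr15:8642298-8642319 (GRCm38). Both are written 5′ to 3′.
forward primer: tcatcgtcctgcctctcctctac
reverse primer: gagcacaaatctggtgatgcgt

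Slc1a2, the GLT-1 gene at chr2:102658659-102790784 on the plus strand, had 7.60, 20.4 and 8.07 FPKM in controls 1, 2 and 3. The NE group ranged from 0.773 to 4.19 with a median of 1.44, and the brimonidine group from 1.03 to 3.03 with a median of 1.42. The groups did not overlap with the controls, and NE 3, NE 7, brimonidine 2 and brimonidine 5 stood at 2.97 FPKM or more while the other exposed libraries were below 2 FPKM. Slc1a2 fell by 2.08 on the log2 scale in the NE group (standard error 0.36, limma adjusted p = 0.00352), from a mean of 12.0 ± 7.29 (SD, n = 3) to 2.00 ± 1.24 FPKM (SD, n = 7), a ratio of 6.01. Without control 2 the ratio was 3.91 and the log2 change -1.65 (adjusted p = 0.0127).

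Slc1a6, the EAAT4 gene at chr10:78780496-78814765 on the plus strand, showed the widest gap of the 10 carriers. It had 12.3, 31.3 and 9.71 FPKM in controls 1, 2 and 3, from 336 to 1024 fragments. In the NE group it had between 0.184 and 0.530 FPKM with a median of 0.212, from only 7 to 20 fragments. In the brimonidine group the range was 0.156 to 3.40 FPKM with a median of 0.332, where the top value, of brimonidine 5, rested on 130 fragments and the other 6 libraries on 6 to 17. Slc1a6 fell by 3.72 on the log2 scale in the NE group (standard error 0.27, limma adjusted p = 4.99e-05), and the difference was -3.24 without control 2 (adjusted p = 1.6e-06). The ratio of the means, 17.8 to 0.270 FPKM, was 65.9, and it was 40.8 without control 2. The gene entered the test only through the 3 controls, since no NE library reached 1 FPKM.

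Between controls and exposed libraries, the 3 falls went along with the cerebellar markers. Between NE and control, limma called 9 of 9 granule cell genes tested and 8 of 8 Purkinje cell genes lower, 2 of 7 astrocyte genes lower (Slc4a4 and Aldoc), and none of the 7 Schwann cell genes, of the 5 hair cell genes or of the 9 genes of fibrocytes and stria vascularis. Of the other cochlear and nerve lists, 1 of 5 oligodendrocyte genes (Mog), 1 of 7 spiral ganglion genes (Calb2) and 1 of 8 supporting cell genes (Prox1) were called lower. Aldoc, of Bergmann glia and Purkinje cells, stood at 111, 238 and 101 FPKM in the 3 controls, against a range of 8.60 to 12.7 with noise alone. Relative to the mean of controls 1 and 3, control 2 held 2.85 times the Slc1a6, 2.61 times the Slc1a2 and 2.39 times the Slc1a3, against 2.73 times the Gabra6, 2.74 times the Pcp2 and 2.24 times the Aldoc. Relative to the median of the other brimonidine libraries, brimonidine 5 held 12.1 times the Slc1a6, 2.40 times the Slc1a2 and 1.78 times the Slc1a3, with 69.6 times the Gabra6, 11.8 times the Pcp2 and 3.58 times the Aldoc. Among the exposed libraries, the top values of Slc1a2 were not all in the libraries with the highest Purkinje cell markers. NE 3, NE 7 and brimonidine 2, at 4.19, 3.26 and 2.97 FPKM of Slc1a2 beside 3.03 in brimonidine 5, had Purkinje cell sums of 11.3, 10.7 and 10.8 FPKM. In the NE group these sums rested mainly on Itpr1, with a mean of 6.57 FPKM beside a median sum of 10.8. Of the 8 Purkinje cell genes, 6 had an NE mean under 1 FPKM. Zic2, with an NE mean of 15.0 FPKM, likewise carried most of the granule cell sum (median 21.5). Oligodendrocyte markers were high in NE 3, NE 7 and brimonidine 2. The 6 oligodendrocyte genes summed to 41.1 FPKM in NE 7 and 36.7 in NE 3, the top 2 of the NE group, and to 36.7 in brimonidine 2, the top of its group. The 8 astrocyte genes were highest in brimonidine 2 within the brimonidine group, at 352 FPKM, while in the NE group they were highest in NE 5, at 351, and stood at 312 in NE 3 and at the group median of 291 in NE 7. Most of this sum was S100b, at 286 FPKM in brimonidine 2 and 276 in NE 5, so that it ranks libraries mainly by 1 gene. Without control 2, limma called 8 of 9 granule cell, 8 of 8 Purkinje cell and 2 of 7 astrocyte genes lower, and neither Mog nor Prox1. The part of cerebellar or glial RNA in these falls was not tested.

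**Figure D2:**
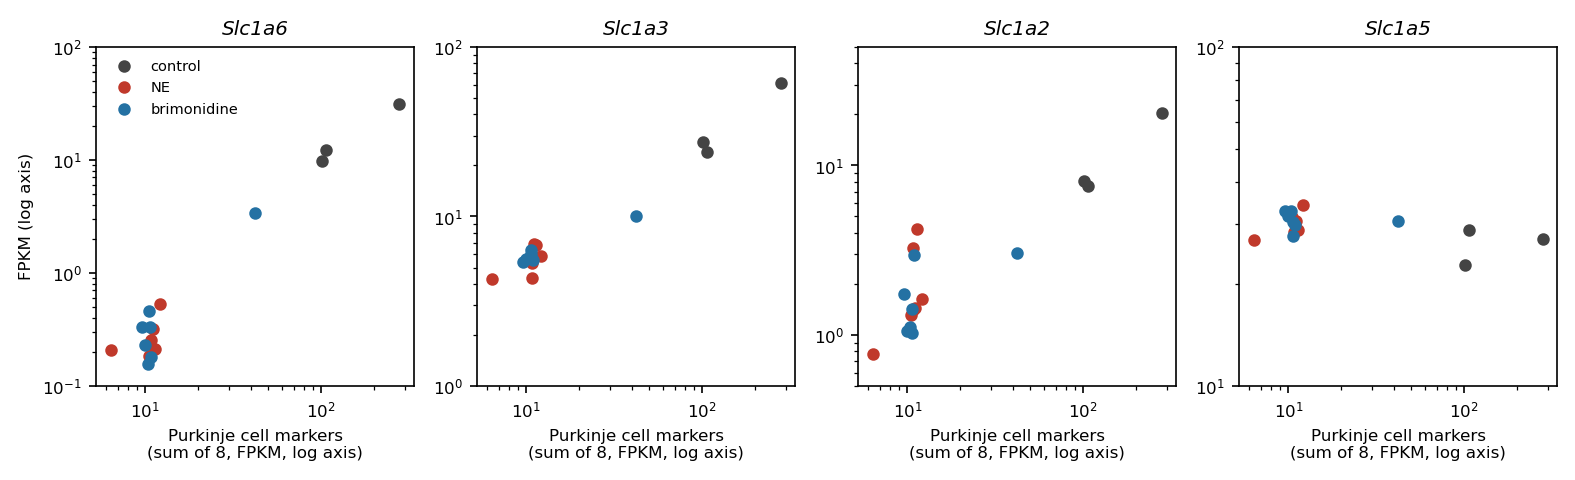
FPKM of Slc1a6, Slc1a3, Slc1a2 and Slc1a5 (vertical, log axes) against the summed FPKM of 8 Purkinje cell markers (horizontal, log axis), 1 point per library, colored by group. Control 2 lies highest on both axes for the first 3 genes, and brimonidine 5, at 41.8 FPKM of markers, lies between the other exposed libraries and the controls for Slc1a6 and Slc1a3, while Slc1a5 stays between 22.8 and 34.3 FPKM throughout.

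Since Slc1a3, Slc1a2 and Slc1a6 moved together, the 250 bases before their RefSeq start sites are shown (GRCm38.p6, plus or minus strand of the gene, 5′ to 3′). RefSeq windows were held for 7 of the 10 carriers. Capitals mark, on either strand, the GC box GGGCGG, the CCAAT box CCAAT and the TATA box TATAAA, which 32.7%, 33.8% and 12.4% of all 32851 windows of this length contained. The Slc1a3 window lies at chr15:8710808-8711057 (minus strand), the Slc1a6 window at chr10:78780246-78780495 (plus strand) and the Slc1a2 window at chr2:102706188-102706437 (plus strand), inside the deposited span of the gene, so that it precedes an internal start.
Slc1a3: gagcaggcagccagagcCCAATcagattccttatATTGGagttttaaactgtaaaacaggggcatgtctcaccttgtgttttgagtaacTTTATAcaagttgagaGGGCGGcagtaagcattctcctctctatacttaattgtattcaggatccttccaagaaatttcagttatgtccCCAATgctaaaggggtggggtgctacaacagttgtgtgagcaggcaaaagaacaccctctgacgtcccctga
Slc1a6: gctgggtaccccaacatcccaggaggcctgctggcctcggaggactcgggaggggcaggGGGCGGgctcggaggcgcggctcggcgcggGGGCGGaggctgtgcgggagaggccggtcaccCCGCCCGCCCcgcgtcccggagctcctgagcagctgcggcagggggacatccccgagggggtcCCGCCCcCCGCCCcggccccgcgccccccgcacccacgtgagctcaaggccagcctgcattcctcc
Slc1a2: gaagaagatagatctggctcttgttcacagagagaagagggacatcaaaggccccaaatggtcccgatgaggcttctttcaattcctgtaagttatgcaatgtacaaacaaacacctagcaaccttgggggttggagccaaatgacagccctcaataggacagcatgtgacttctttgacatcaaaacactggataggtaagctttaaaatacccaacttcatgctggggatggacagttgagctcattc
None of these motifs was in all 3 sequences, although Slc1a3 and Slc1a6 both held the GC box. The Slc1a6 window held 6 GC boxes, of which a pair overlapped, with 78.8% G and C and 26 CG pairs, against a median of 52.4% and 6 pairs over all windows. The Slc1a3 window held 1 GC box, 3 CCAAT boxes and 1 reversed TATA box at 44.8% G and C, and the Slc1a2 window held none of them at the same 44.8%.

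Slc1a1, the EAAC1 gene of neurons and epithelia at chr19:28835049-28913960, was a minor transporter at 1.50, 1.48 and 1.78 FPKM in controls 1, 2 and 3. The NE group ranged from 0.970 to 1.48 (median 1.07) and the brimonidine group from 0.626 to 1.28 (median 0.943). The NE maximum, 1.481, lay just under the control minimum, 1.484, so that the groups touched without overlapping, and control 2 was here the lowest control. The log2 difference was -0.25 for NE (limma adjusted p = 0.149) and -0.41 for brimonidine (adjusted p = 0.0549), neither past the threshold. Slc1a7, the EAAT5 gene at chr4:107968332-108013532, had between 0 and 2 fragments per library, below the 3 fragments (0.0488 to 0.0618 FPKM) that a count of 0 allows, and it was not detectable at this depth in any group.

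The 5 glutamate transporters together gave 45.5, 115 and 47.3 FPKM in controls 1, 2 and 3. Their sum was between 6.27 and 12.3 (median 9.02) in the NE group and between 7.60 and 17.7 (median 8.42) in the brimonidine group. The make-up of the sum separated controls and NE group for Slc1a6 and Slc1a1, without overlap. Slc1a6 made up 20.6% to 27.3% of the sum in the controls and 1.73% to 5.87% in the NE group, whereas Slc1a1 made up 1.29% to 3.77% and 8.76% to 16.6%. The part of Slc1a2, 16.7% to 17.8% in the controls, lay inside its range of 12.3% to 34.2% in the NE group, and Slc1a3 was the main component of both at 52.9% to 58.6% and 51.8% to 68.4%. Brimonidine 5 had a Slc1a6 part of 19.2%, just under the lowest control, where the median of the group was 3.57%.

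**Figure D3:**
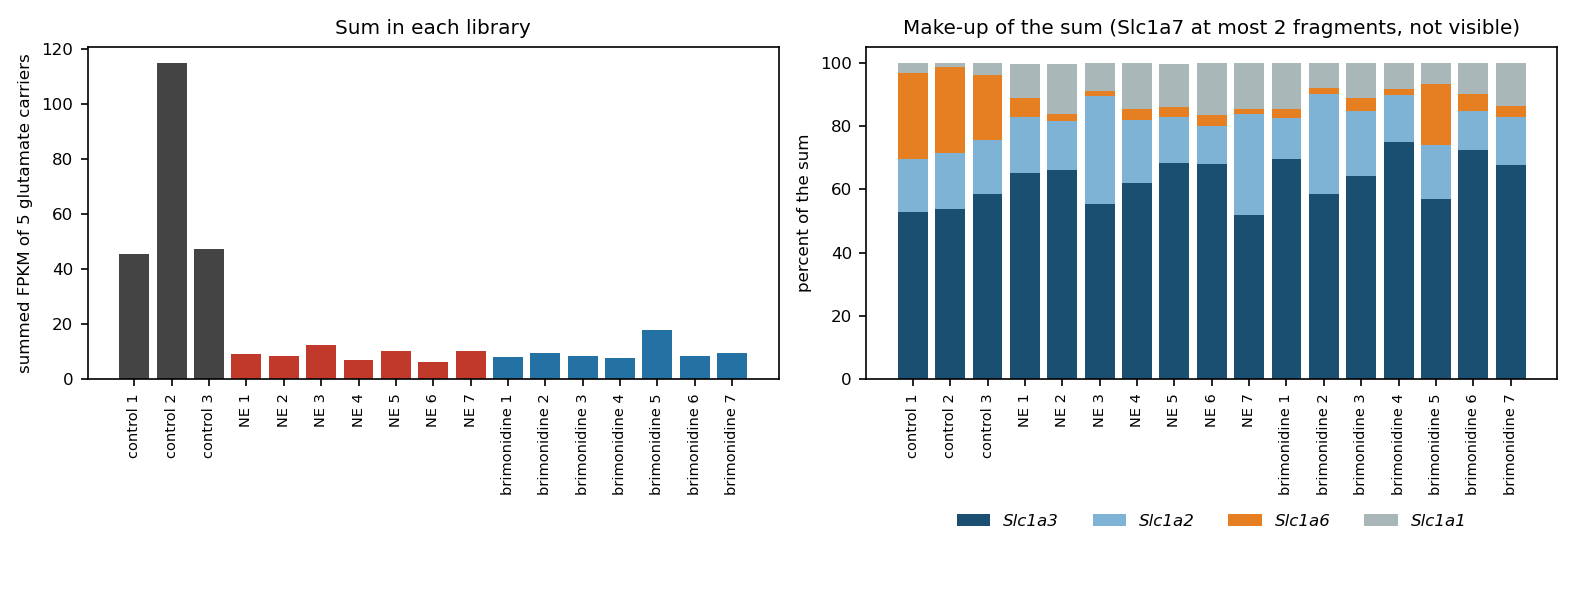
Left, summed FPKM of the 5 glutamate transporters in each of the 17 libraries, with bars in the color of the group. Right, the percent of that sum from each transporter. The sum is 45.5 FPKM or more in the 3 controls and 17.7 or less in the exposed libraries, and the part of Slc1a6 (orange) is large in the controls and in brimonidine 5 (19.2%).

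Slc1a5, the ASCT2 gene at chr7:16781340-16798274, was not among the genes that fell. It had 28.8, 27.2 and 22.8 FPKM in controls 1, 2 and 3. The NE group ranged from 26.9 to 34.3 (median 30.6) and the brimonidine group from 27.7 to 32.8 (median 30.6). The groups overlapped, although all 14 exposed libraries lay above the control mean. The log2 difference of 0.20 for NE (95% interval -0.01 to 0.40, limma adjusted p = 0.173) and of 0.23 for brimonidine (adjusted p = 0.0868) did not pass. After rescaling by the median ratio, both passed at an adjusted p of 0.0476 and 0.0409, with log2 differences of 0.32 and 0.33.

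Among the glutamine carriers, Slc38a1, the SNAT1 gene at chr15:96571418-96642913, had 19.3, 29.6 and 16.2 FPKM in controls 1, 2 and 3. It ranged from 12.4 to 15.9 (median 14.5) in the NE group and from 12.4 to 16.4 (median 14.5) in the brimonidine group. The lowest control lay just above the NE group and inside the range of the brimonidine group. Slc38a1 fell by 0.56 on the log2 scale in the NE group (standard error 0.15, limma adjusted p = 0.0337), a ratio of 1.56 that stayed under the minimum fold change of 2 of the call. Without control 2 it was -0.33 (adjusted p = 0.0815). Slc38a2, the SNAT2 gene at chr15:96687394-96699698, whose transcription rises when amino acids are scarce, had 74.4, 88.6 and 86.8 FPKM in the controls. The NE group ranged from 46.1 to 70.0 (median 68.1) with NE 6 lowest, all below the controls, and the brimonidine group from 64.0 to 78.0 (median 68.7), overlapping with them. The log2 difference was -0.37 for NE (adjusted p = 0.0842) and -0.26 for brimonidine (adjusted p = 0.0715).

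Slc38a3, the SNAT3 gene at chr9:107650634-107669530, which astrocytes use to release glutamine, had 2.90, 6.24 and 2.24 FPKM in controls 1, 2 and 3. The NE group ranged from 1.06 to 1.96 (median 1.80), below all controls, and the brimonidine group from 1.25 to 2.44 (median 1.48), which overlapped with control 3. Slc38a3 fell by 0.75 on the log2 scale in the NE group (standard error 0.22, limma adjusted p = 0.042), and without control 2 the difference was -0.41 (adjusted p = 0.114). Slc38a5, the SNAT5 gene at chrX:8271133-8280179, had 3.27, 7.97 and 3.08 FPKM in the controls, 3.14 to 6.15 (median 3.46) in the NE group and 3.37 to 6.24 (median 4.57) in the brimonidine group. Controls 1 and 3 lay at the low end of the exposed libraries and control 2 above all of them. The 9 erythroid genes were also highest in the library with the most Slc38a5 in each group, at a sum of 10890 FPKM in control 2, 6073 in NE 1 and 5946 in brimonidine 3. They were lowest, like Slc38a5, in control 3 (1786) and NE 7 (2183), but in the brimonidine group Slc38a5 was lowest in brimonidine 4 and the erythroid sum in brimonidine 7. The part of red cell RNA in Slc38a5 was not tested. The log2 difference of -0.11 for NE (adjusted p = 0.786) turned to 0.26 without control 2 (adjusted p = 0.498).

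**Figure D4:**
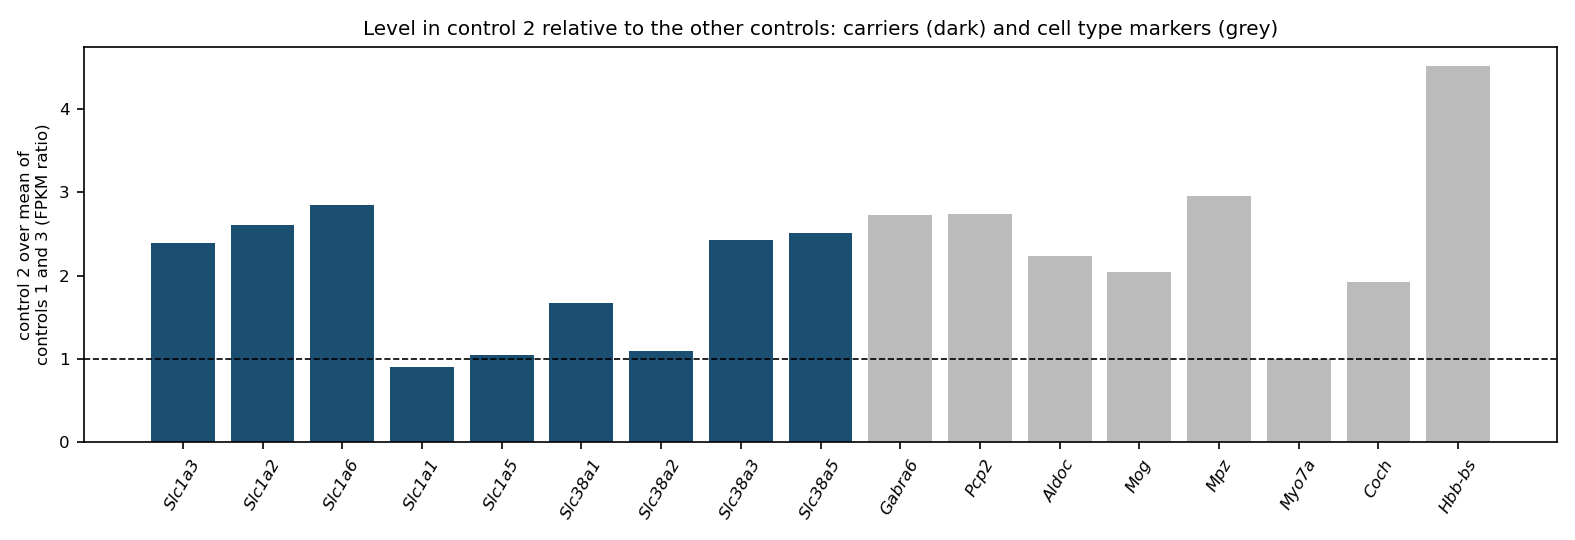
FPKM in control 2 divided by the mean of controls 1 and 3, for 9 carriers (dark bars) and 8 cell type markers (grey bars), with the dashed line at a ratio of 1. Slc1a6, Slc1a2, Slc38a5, Slc38a3 and Slc1a3 stand at 2.39 to 2.85, Slc38a1 at 1.67, and Slc38a2, Slc1a5 and Slc1a1 at 0.903 to 1.10, beside Gabra6 at 2.73 and Hbb-bs at 4.52.

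Taking the carriers as a group, 9 of the 10 passed the filter of 1 FPKM in at least 3 libraries of the NE and control groups, and 3 were called lower in the NE group (adjusted p under 0.05 and a log2 fold change of at least 1) against 5.49% of all 15950 genes tested. Of these 3, Slc1a6 passed the filter only through the controls. No carrier was called higher, against 0.27% of genes. At the adjusted p alone 5 were lower, with a background of 12.0%. This number was 3 without control 2, and also 3 without NE 1, 2, 3, 5 or 7, since Slc38a1 and Slc38a3 then missed the threshold. Separation without overlap, lower in the NE group, held for 7 of the 9 carriers tested, Slc1a1, Slc1a2, Slc1a3, Slc1a6, Slc38a1, Slc38a2 and Slc38a3, against 15.0% of genes tested. The median log2 difference of the 9 carriers tested was -0.56, beside -0.04 for all genes, and it was -0.33 without control 2, beside -0.02. All 3 calls held without that library. Rescaling by the median ratio moved the median of all genes to 0.06 and left that of the carriers at -0.45.

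The brimonidine group was compared with the controls in the same way, with the control libraries shared between both comparisons. The same 3 carriers were called lower, with log2 fold changes of -3.45 for Slc1a6, -2.29 for Slc1a3 and -2.16 for Slc1a2 and limma adjusted p values of 0.00111, 0.00111 and 0.00169, against 5.56% of 15947 genes tested. At the adjusted p alone Slc38a1 was added at -0.52 (adjusted p = 0.0485), which made 4 of 9 against 12.3%. Without control 2 it was at -0.28 (adjusted p = 0.141), and the number was 3, as it was without any 1 of the brimonidine libraries, whereas it was 7 without control 1. Slc1a6 passed the filter through the controls here too, since only brimonidine 5 of its group reached 1 FPKM. When control 2 and brimonidine 5 were both left out, a choice made after seeing the markers, the 3 calls remained, at -3.22, -1.99 and -1.83. Here 4 of the 9 carriers tested, Slc1a1, Slc1a2, Slc1a3 and Slc1a6, were lower without overlap, against 14.3% of genes.

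Brimonidine was then compared with NE, the comparison that asks whether the drug altered the carriers after noise, and which does not involve the controls. Of the 8 carriers tested, none was called (0.0% of all genes were), and none of them had an unadjusted p under 0.05, against 5.77% of 15707 genes. Across all genes limma called 0 at both thresholds, with 1 at the adjusted p alone and 906 at an unadjusted p under 0.05. The voom fit of the recovered fragments called 0 as well.

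The intervals bound the differences. For Slc1a3, the mean was 6.38 ± 1.66 FPKM (SD, n = 7) with brimonidine and 5.58 ± 1.05 (SD, n = 7) with noise alone. The log2 difference was 0.16 with a 95% interval of -0.11 to 0.42 (adjusted p = 0.903), a ratio of FPKM + 1 between 0.925 and 1.34, and it was 0.05 without brimonidine 5. For Slc1a2 the difference was -0.08 (interval -0.59 to 0.42), the widest of the 8, with a ratio between 0.663 and 1.34. The narrowest interval was that of Slc1a5, with a ratio between 0.944 and 1.11. Slc1a1 was lower in 6 of 7 brimonidine libraries than the NE mean, at a log2 difference of -0.16 (interval -0.36 to 0.03, adjusted p = 0.875). For Slc38a1, Slc38a2, Slc38a3 and Slc38a5 the ratio lay between 0.865 at the least and 1.32 at the most. Slc1a6 was too low to enter this test, and the exact two-sided permutation test of its log2(FPKM + 1) means gave p = 0.413, where 0.00058 is the smallest p that 7 against 7 libraries allow. These intervals do not show that the groups are alike.

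**Figure D5:**
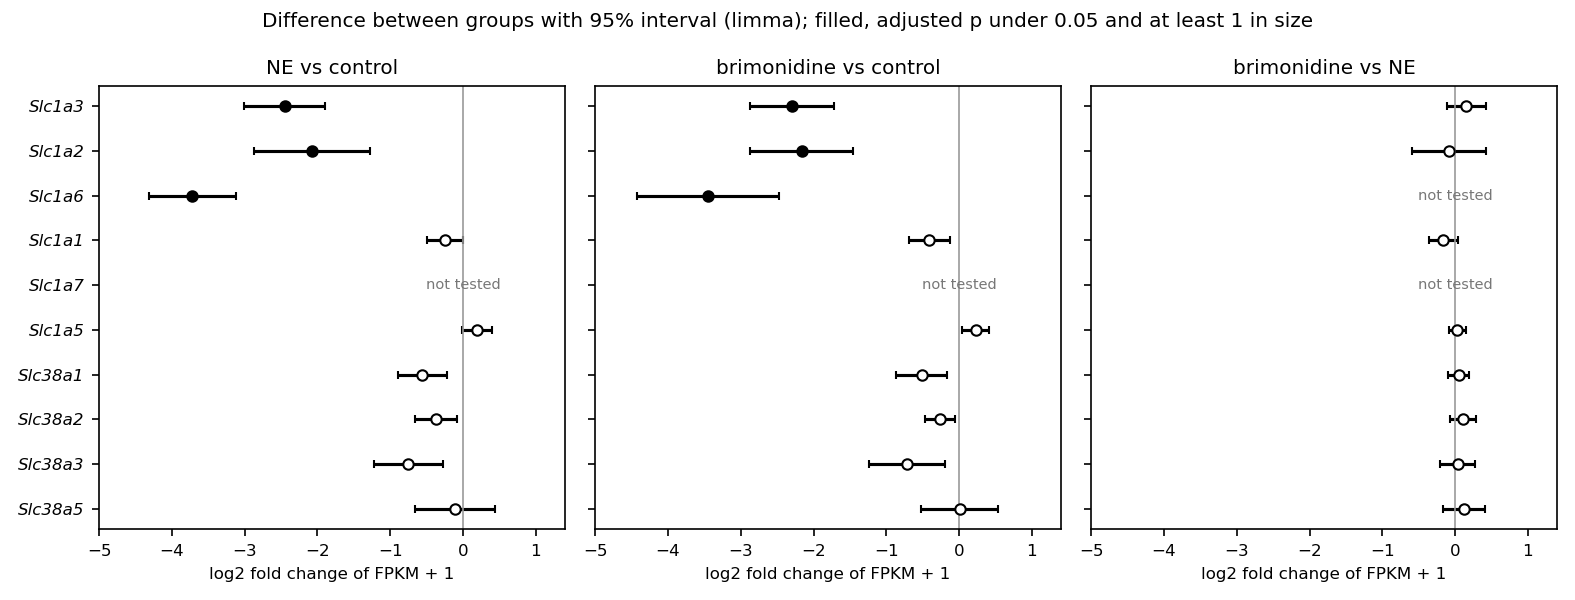
Log2 fold change of FPKM + 1 (horizontal) with its 95% interval from limma for the carriers tested in 3 comparisons. Filled circles passed an adjusted p under 0.05 with a size of at least 1. Slc1a3, Slc1a2 and Slc1a6 are filled in both comparisons with the controls, and no circle is filled between brimonidine and NE, where Slc1a6 was not tested. Slc1a7 was tested in none of the 3.

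The other genes of the pathway were taken from lists. None of 12 tested carriers of neutral and related amino acids, of 16 listed, was called between NE and control. Slc1a4, the exchanger ASCT1, was lower by the adjusted p alone, at 4.13 ± 1.10 (SD, n = 3) and 2.56 ± 0.355 FPKM (SD, n = 7), with a log2 difference of -0.51 (adjusted p = 0.0274), and Slc38a10 was higher at 0.25 (adjusted p = 0.0362). Neither passed without control 2 (adjusted p = 0.0946 and 0.0825). Of 8 genes tested for the enzymes and vesicular transporters of the glutamate–glutamine cycle, 2 were called lower. These were Slc17a7, the vesicular glutamate transporter VGLUT1, which fell by 2.18 (adjusted p = 0.00144), and Gls2, a glutaminase, which fell by 1.23 (adjusted p = 0.00457) but passed the filter only through the controls, with at most 0.542 FPKM in the NE group. Like the cerebellar markers, Slc17a7 and Gls2 were highest in control 2 and, of the brimonidine group, in brimonidine 5. Control 2 held 2.95 times the Slc17a7 of controls 1 and 3, and brimonidine 5 held 2.01 times the median of the other brimonidine libraries. Without control 2 the difference of Slc17a7 was -1.68 (adjusted p = 0.00111), and that of Gls2 was -0.86 (adjusted p = 0.00151), under the size of the call. The part of cerebellar RNA in these values was not tested either. Glul, glutamine synthetase, stood at 107.9, 199 and 117 FPKM in controls 1, 2 and 3, with an NE range of 92.0 to 128 (adjusted p = 0.235).

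The sodium pump maintains the gradient that drives these carriers, and its subunit genes Atp1b2 and Atp1b1 were called lower in the NE group. The log2 fold change was -1.47 for Atp1b2 and -1.03 for Atp1b1 (limma adjusted p = 0.00692 and 0.0275). Both were highest in control 2, where Atp1b2 had 191 FPKM against 65.1 and 65.0 in controls 1 and 3. Neither was called without control 2, at -0.96 for Atp1b2 (adjusted p = 0.00084) and -0.61 for Atp1b1 (adjusted p = 0.0614). Of 10 genes that respond to amino acid shortage, among them Atf4 and Asns, none was called. Between brimonidine and NE none of these 4 lists held a called gene.

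The genes whose profile was most like that of a carrier were sought among 14998 genes whose mean reached 1 FPKM, by Pearson's r of log2(FPKM + 1). Over all 17 libraries the closest were En2 and Rgs8 for Slc1a6 (r = 0.997 for both), Camk4 and Gpm6a for Slc1a3 (r = 0.993 for both), and Scg3 for Slc1a2 (r = 0.977). The 3 controls stand apart from the exposed libraries in all of these genes. Over the 14 exposed libraries the closest were Hes3 for Slc1a6 (r = 0.989), Dlg2 for Slc1a3 (r = 0.926) and 6330403K07Rik for Slc1a2 (r = 0.893), followed by Ttyh1 (r = 0.888) and Olig1 (r = 0.887). Slc38a5 was nearest to Slc43a1 in both sets (r = 0.947 over 17 and 0.926 over 14), and Rhd, an erythroid blood group gene, was among its 3 nearest in both. Slc1a1 was nearest to Grb7 in both (r = 0.898 and 0.918). For the remaining carriers the closest genes over the 14 exposed libraries were Nup205 for Slc38a1 (r = 0.943), Tmod1 for Slc38a2 (r = 0.953), Kcnab1 for Slc38a3 (r = 0.914) and Slc25a51 for Slc1a5 (r = 0.822). Without brimonidine 5, which stood apart for Slc1a6 and Slc1a3, r over 13 libraries was 0.801 between Slc1a6 and Hes3 and 0.834 between Slc1a3 and Dlg2, a symbol that belongs to more than 1 gene of the table.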

How the data were processed

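RNA was extracted with TRIzol, and strand-specific mRNA libraries were made with a TruSeq kit and sequenced on an Illumina NovaSeq instrument. The submitters' processing notes name Trimmomatic, HISAT2, Cufflinks, HTSeq and mm10, with no role or version. The authors deposited FPKM values, fragments divided by exon length and library total with no other scaling between libraries. Multiplied by GENCODE M21 exon lengths, 92.76% of the 35029 genes above 0 gave whole fragments (within 0.05), and with lengths solved from the values (Slc1a1, Slc38a1 and Slc38a2 among them) 35028 did. The authors' test, DESeq2, was not applied to the FPKM values, and recovered fragments were fitted with voom as an alternative.

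Groups follow the labels. Genes with at least 1 FPKM in at least 3 libraries of the 2 groups compared were tested on log2(FPKM + 1) with limma 3.58.1 (trend) in R 4.3.3, with Benjamini-Hochberg adjustment over all genes tested. A gene was called at an adjusted p under 0.05 with a log2 fold change of 1 or more in size. Exact two-sided permutation tests, sums and figures were made in Python 3.11.15 with numpy 2.4.6, pandas 2.3.3 and matplotlib 3.10.9. Intervals and the floor of 3 fragments cover counting error or the spread between these libraries only. The fit was tested on simulated data. Alternatives were an offset of 0.1, no filter, 3 rescalings, all 17 libraries in 1 model, a replicate block, voom on recovered fragments, and each library left out.

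Named were all 10 carriers, the 3 genes most like each, listed pathway genes that were called or at most 4 per list of highest mean, and set marker genes. Slc1a4, Slc4a4, Calb2, Prox1, Myh1, Acta1 and Ckm were named after their values were seen. The members and lists were chosen with earlier results of these data known. Some listed genes are not reported here.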

Additional observations from a re-analysis of the deposited data

Results flagged for a closer look

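For the carriers in the NE and brimonidine groups, 19 sets of 7 values were examined. The highest or lowest library was compared with its neighbours by Dixon's criterion, which chance alone passes in about 1 of 20 sets, and 5 sets held a library that stood apart. In the brimonidine group, brimonidine 5 stood apart for Slc1a6, at 3.40 FPKM, and for Slc1a3, at 10.1 FPKM. It was also the brimonidine library with the highest summed granule cell and Purkinje cell markers, at 73.9 and 41.8 FPKM. In the NE group, NE 1 stood apart for Slc1a6, at 0.530 FPKM from 20 fragments, and it held the highest sum of granule cell markers in its group, 29.2 FPKM. NE 6 was the lowest for Slc38a2, at 46.1 FPKM, and for Slc38a3, at 1.06 FPKM, and it held the highest sum of neutrophil markers of all libraries, 64540 FPKM. The part of these markers in the values was not tested.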

How the results depend on the processing

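The 3 calls between NE and control held with any library left out (3 in each case) and under all alternatives but the replicate block, where 0 carriers and 0 genes of all were called. The log2 differences with the block were -1.91, -2.33 and -3.68 for Slc1a2, Slc1a3 and Slc1a6, and the cause of the lost calls was not tested. Same-numbered libraries did not deviate together (correlations from -0.221 to 0.083), so the numbers do not pair the mice. For brimonidine against control, 236 genes were called with the block and 913 without it, and the 3 carriers were called in both. Called genes in all numbered 918 for NE against control, 584 without control 2 and at most 1243 with another library left out, and for brimonidine against control 589 to 1282. Between brimonidine and NE the count was 0 throughout. An offset of 0.1 or voom added Slc38a3 to the calls between NE and control, 4 in all. In that comparison the median of all genes (log2) was -0.04, and it was -0.06 with equal totals, 0.06 with median-ratio scaling and 0.06 with quantiles, and the direction of Slc1a2, Slc1a3, Slc1a6, Slc38a1, Slc38a2, Slc38a3 and Slc1a1 held under each scaling. The difference of Slc38a5 turned to 0.07 with quantile normalization, 0.05 with the block and 0.26 without control 2; leaving out libraries gave -0.31 to 0.26, and for brimonidine against control -0.19 to 0.37. Between brimonidine and NE, leaving out libraries gave -0.19 to 0.06 for Slc1a2 and -0.03 to 0.08 for Slc38a3. The adjusted p of Slc38a1 and Slc38a3 between NE and control rose above 0.05 in 10 and 12 of 18 alternatives, and that of Slc38a1 between brimonidine and control in 13 of 19. Other differences gained an adjusted p under 0.05. Between NE and control these were Slc38a2 in 1 model of all 17 libraries (0.0218) and without NE 6 (0.0405), and Slc1a5 with median-ratio scaling (0.0476). Between brimonidine and control, Slc38a3 and Slc1a5 passed in 3 alternatives each (adjusted p from 0.0147 to 0.0476 and from 0.0369 to 0.0426), Slc1a1 in 2 (0.0153 and 0.0312) and Slc38a2 in 1 (0.0266). The cause of the other shifts was not tested either. With 3 controls, all of which carry cerebellar markers, noise and tissue make-up cannot be told apart.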

Other observations

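Some skeletal muscle genes were higher in the NE group. Between NE and control, Myh1, Acta1 and Ckm were called higher, 3 of the 6 muscle genes tested (5 without control 2), and between brimonidine and control none was. The difference between these comparisons was not tested, and the genes were listed as markers of a tissue beside the cochlea. The summed level of the 6 genes was 177 to 487 FPKM in the controls, 347 to 847 in the NE group and 280 to 714 in the brimonidine group. Erythroid genes summed to 10890 FPKM in control 2, against at most 6073 in any other library, and none of the 9 tested was called in any of the 3 comparisons. Likewise none of 8 neutrophil genes, 7 B cell genes and 7 osteoblast genes was called in any of them.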
